A study of Mus musculus with 18 samples.

Results

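Ntrk2, Ntrk3, Ret, Gfra1, Gfra2 and Gfra3 encode receptors for the neurotrophins and for the GDNF family of growth factors, and their messenger RNA was followed in dorsal root ganglia of the mouse, cultured as explants, before and during myelination. The genes were chosen by name, and every probe whose RefSeq accession belongs to any of them was taken, which gave 11 of the 55681 probes on the array. The 6 genes stand among 14542 genes with a RefSeq symbol that could be tested. The filter asked for a signal well above background on all arrays of some day, and 10 of the 11 probes passed it. Ganglia came from C57BL/6J embryos of embryonic day 13.5, with no allele or transgene named, and were grown on matrigel in growth medium for 12 days. RNA was taken at that point (day 0, labelled control) and after 10 and 22 days in myelination medium, mature sheaths being abundant at the later day. Per the series' design text a batch comes from its own pool of embryos, although the sample titles number the batches as mice, and 3 were used on each day with a pair of arrays for every one, technical repeats per the labels, so that a day has 6 arrays and the series 18. A ganglion explant holds neurons, Schwann cells, satellite glia and other cells together. The series has no culture kept without myelination medium, so the medium and time in culture cannot be told apart.

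Trk receptors are receptor tyrosine kinases that carry survival and growth signals from neurotrophins. Ntrk2 encodes TrkB, the receptor of BDNF and of the product of Ntf5, and Ntrk3 encodes TrkC, the receptor of the product of Ntf3; both genes also make truncated receptors that lack the kinase. Ret is the shared signalling receptor of the GDNF family, and it is engaged through a co-receptor anchored to the membrane: Gfra1 for GDNF, Gfra2 for neurturin and Gfra3 for artemin. In the dorsal root ganglion these receptors mark different classes of sensory neuron, TrkC the proprioceptors and Gfra3 many peptidergic nociceptors, for example. Schwann cells are known to express Gfra1 as well, above all after nerve injury, and truncated TrkB.

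Levels are log2 intensities minus the 75th percentile of the array, so that 0 is a signal equal to that percentile. A level has meaning only within a probe, so levels of different probes are not ranked against each other. Between 54.8 and 61.5% of the spots that were not controls were well above background on an array. Precision is limited by how few arrays there are. Pan-neuronal markers passed the filter in 16 of 16 cases, sensory neuron markers in 17 of 19 (not Prrxl1 and Mrgprd) and Schwann cell markers in 10 of 10. Of skeletal muscle markers 1 of 8 passed, but of motor neuron and spinal cord markers 8 of 10 and of endothelial markers 6 of 8. Of all genes with a RefSeq symbol on the array, 14542 of 20145 passed, so passing does not by itself show that a cell type is present. Which arrays form a batch depends on the file that is read. The authors' value table has 18 columns, and 12 of them carry the signals of an array that was filed as another sample of that day, the same positions being exchanged at every time. The days are not touched by this, but the error is. A change is therefore given as a log2 difference ± its standard error from limma with array-file batches (n = 3 per day), and a second adjusted p comes from value-table batches. Which assignment is right is not stated, but arrays paired by the value table were more alike. Limma's F test of batches within days called 8.69% of features with value-table batches and 0.0% with array-file batches. Over all features the median SD between the 2 arrays of a batch was 0.21 with array-file batches and 0.17 with value-table batches. Value-table batches gave a larger standard error for Ntrk2 (0.30 against 0.18), Ret (0.55 against 0.28), Gfra3 (0.49 against 0.32) and Gfra1 (0.30 against 0.21). They gave a smaller one for Gfra2 (0.20 against 0.24) and Ntrk3 (0.19 against 0.20). A numbered batch is that of the array files unless the value table is named. The words rose and fell are kept for genes with adjusted p below 0.05 under both. Over the 22854 features tested, the median change was -0.06 over the first interval (day 0 to 10), -0.02 over the second (day 10 to 22) and -0.08 over both.

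Among the receptors Gfra1 rose and Gfra2 fell during myelination, and Gfra3 was lower and Ntrk2 higher at day 22 than at day 0 with less certainty. Ntrk3 and Ret did not pass the threshold in any comparison. By day 10, 1 of the 6 genes was called higher and 2 lower than at day 0 with array-file batches, when 11.4% of all features were called higher and 17.8% lower. With both assignments of batches 1 was higher and 1 lower, against 5.75 and 7.72% of features. By day 22, 2 were higher and 2 lower (17.1 and 27.3% of features), and 1 and 1 with both assignments (12.6 and 18.6% of features). From day 10 to day 22 limma called 0 of the 6 genes; at an unadjusted p under 0.05 there was 1, Gfra2, also with value-table batches. The background in that interval was 4.2% of features higher and 5.43% lower, and 0.49 and 1.45% with both assignments. Beside so large a background these counts are no result about the receptors as a set, and the genes are described singly.

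**Figure D1:**
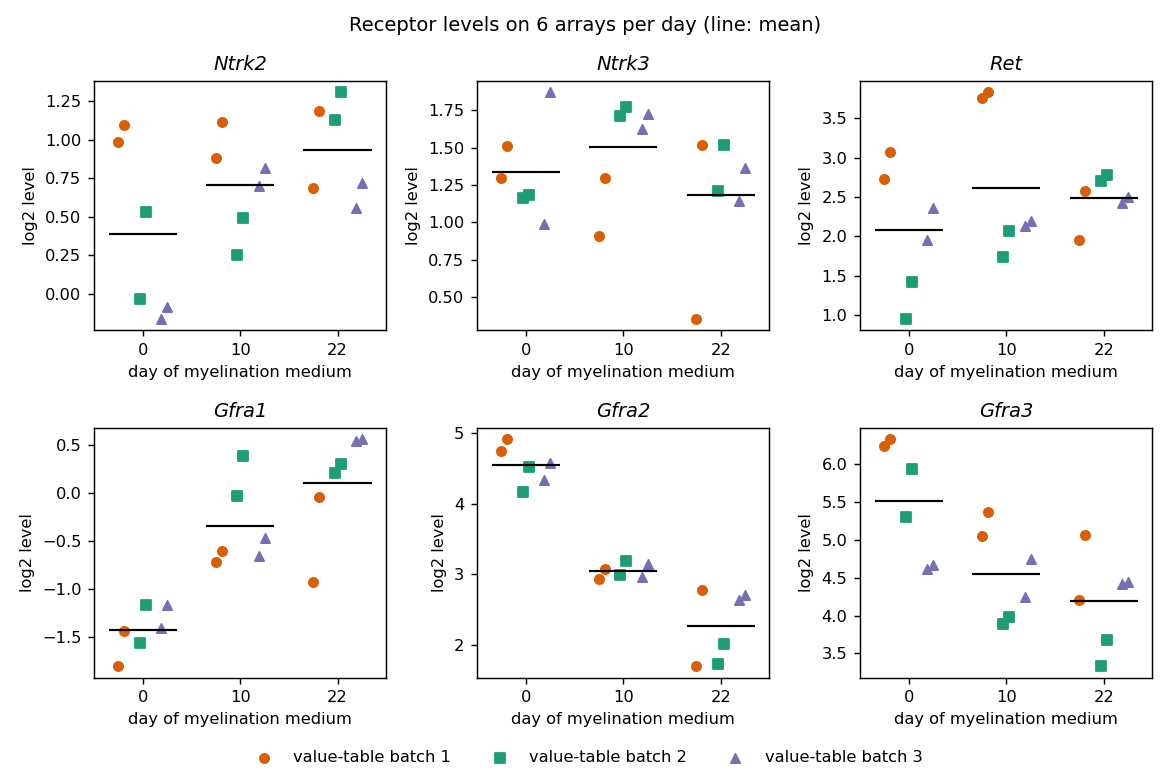
Log2 level (0 is the array's 75th percentile) of the brightest probe of each receptor gene on each of 6 arrays at days 0, 10 and 22, with the mean of the day as a line and the value-table batch of the array by colour and shape. All Gfra1 points of day 0 lie below those of days 10 and 22, all Gfra2 points of day 0 lie above them, and the Ret points of value-table batch 1 lie above the others on days 0 and 10.

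Gfra1, the GDNF co-receptor, was low at day 0, when its 6 arrays read -1.80, -1.56, -1.44, -1.41, -1.17 and -1.17. At day 10 they read -0.72, -0.66, -0.60, -0.47, -0.03 and 0.38, and at day 22 they read -0.93, -0.04, 0.20, 0.29, 0.54 and 0.55. No array of day 0 reached the lowest array of either later day, the gap being 0.45 to day 10 and 0.25 to day 22, while days 10 and 22 overlapped. The batch means were -1.43 ± 0.16, -0.35 ± 0.23 and 0.10 ± 0.41 (SD, n = 3 batches). Gfra1 rose by 1.08 ± 0.21 from day 0 to day 10, or 2.11-fold (adjusted p = 0.00676 by limma, 0.0489 with value-table batches). Over the 22 days it rose by 1.53 ± 0.21, or 2.88-fold (adjusted p = 0.000659 and 0.0066). All 3 batches moved upward over both spans under either assignment, by 0.94 to 1.86 from day 0 to day 22 with the array files and by 1.14 to 1.84 with the value table. From day 10 to day 22 the difference of 0.45 ± 0.21 did not pass (adjusted p = 0.208). It passed only without batch 1 of day 22, which holds the array at -0.93 (0.69 ± 0.15, adjusted p = 0.0428). Without batch 3 of day 22 it was 0.30 ± 0.21 (adjusted p = 0.391), and within slide 2 0.70 ± 0.29 (adjusted p = 0.477). Within slide 1, which holds only batch 1 of day 22, the difference was 0.03.

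Gfra2, the neurturin co-receptor, moved the other way and by the largest amount of the 6 genes. Its arrays lay between 4.17 and 4.91 at day 0 (median 4.55), between 2.94 and 3.18 at day 10 (median 3.03) and between 1.69 and 2.78 at day 22 (median 2.32). The 3 days did not overlap: the lowest array of day 0 stood 0.99 above the highest of day 10, and the lowest of day 10 stood 0.16 above the highest of day 22. At day 10 its 6 arrays fell within 1.18-fold of each other, the tightest group of the 6 genes, whereas at day 22 they spread over 2.13-fold. Gfra2 fell by 1.50 on the log2 scale (SE 0.24) from day 0 to day 10, or 2.83-fold, with adjusted p = 0.00331 by limma and 0.0051 with value-table batches. By day 22 it had fallen by 2.29 (SE 0.24), or 4.89-fold (adjusted p = 0.000198 and 0.000246). Every batch was lower at the later day in every interval under both assignments. The step from day 10 to day 22, -0.79 ± 0.24, missed the threshold (adjusted p = 0.0782, 0.0952 and 0.0843 with the value-table batches as a block). It passed when the 18 arrays were fitted with batch as a random effect (adjusted p = 0.00866) and without batch 2 of day 22 (-1.03 ± 0.21, adjusted p = 0.0416), but was -0.52 ± 0.17 without batch 1 of that day (adjusted p = 0.13). Within slide 1, which holds only batch 1 of day 22, the step was -1.40.

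Gfra3, the artemin co-receptor, was also lower later in the culture, but its batches differed more. Its arrays ranged from 4.62 to 6.33 at day 0 (median 5.62), from 3.89 to 5.37 at day 10 (median 4.50) and from 3.33 to 5.07 at day 22 (median 4.31), and every pair of days overlapped. The difference from day 0 to day 22 was -1.33 ± 0.32, or 2.51-fold lower, with adjusted p = 0.00972 by limma. It was 0.0698 with value-table batches and 0.0299 when these also formed a block. At day 10 the difference from day 0 was -0.97 ± 0.32 (adjusted p = 0.0499, 0.214 with the value table and 0.108 with its block). That call was lost in 14 of 22 alternatives, among them the removal of batch 1 or 2 of day 0, of batch 1 or 3 of day 10 or of any batch of day 22, with adjusted p = 0.0602 to 0.148. In the value table's batches the drop from day 0 to day 22 was 1.65 in batch 1, 2.12 in batch 2 and 0.22 in batch 3, so that 3 of 3 batches were lower and 1 of them by little. Value-table batch 3 started lowest, at 4.62 and 4.67 on day 0, and ended at 4.44 and 4.42.

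**Figure D2:**
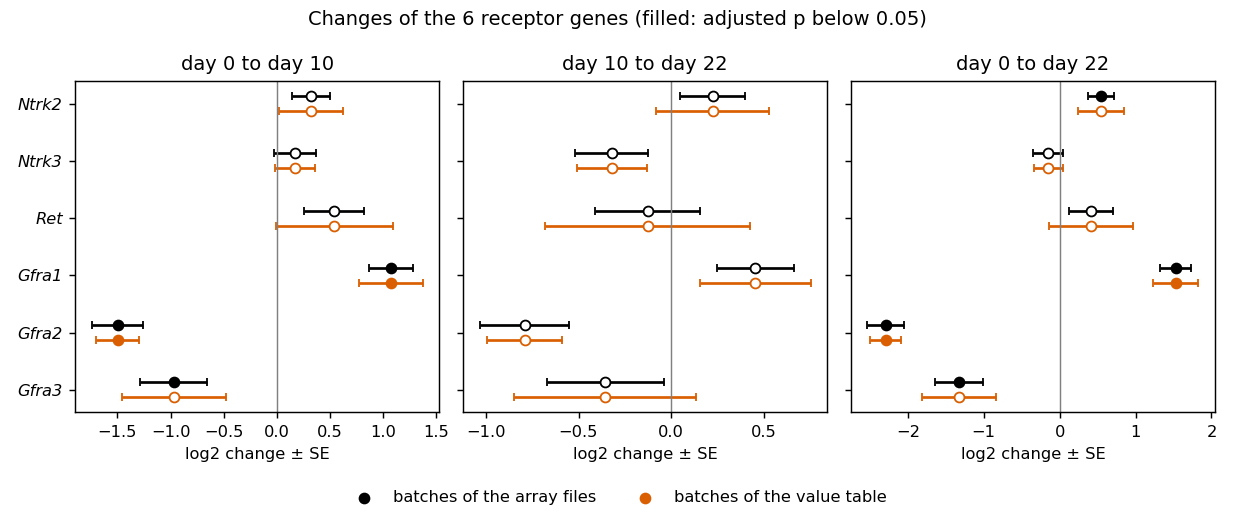
Log2 change of each receptor gene ± its standard error in limma (x axis) for the 3 pairs of days, with array-file batches in black and value-table batches in orange; filled points have adjusted p below 0.05. Gfra1 and Gfra2 are filled in both colours in the panels that start at day 0, and Gfra3 only in black. Ntrk2 is filled only in black and only from day 0 to day 22, and no point is filled from day 10 to day 22.

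The RefSeq promoters (build GRCm38.p6) of 2 of the genes are printed to show the sequence at the start of a receptor that rose, Gfra1, and of a gene that was higher with less certainty, Ntrk2; the other 4 are not printed. Each run holds 250 bases before and 50 after the start of the gene, 5′ to 3′ on the strand of the gene, at chr19:58455349-58455648 (minus strand) for Gfra1 and chr13:58806319-58806618 (plus strand) for Ntrk2. Capitals mark the matches to the 6 motifs searched on both strands.
Gfra1: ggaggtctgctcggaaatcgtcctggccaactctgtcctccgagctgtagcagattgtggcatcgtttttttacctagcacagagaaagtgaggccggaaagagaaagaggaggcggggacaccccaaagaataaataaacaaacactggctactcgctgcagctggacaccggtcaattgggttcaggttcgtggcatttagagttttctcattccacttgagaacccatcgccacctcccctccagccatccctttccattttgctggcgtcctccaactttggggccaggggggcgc
Ntrk2: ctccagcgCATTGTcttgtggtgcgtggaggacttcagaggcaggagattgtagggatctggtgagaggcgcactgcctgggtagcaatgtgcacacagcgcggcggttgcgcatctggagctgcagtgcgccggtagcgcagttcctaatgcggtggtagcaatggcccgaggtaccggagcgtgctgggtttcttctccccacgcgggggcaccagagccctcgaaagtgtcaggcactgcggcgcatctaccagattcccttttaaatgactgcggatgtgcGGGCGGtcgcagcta
The motifs were AP-1 (TGANTCA, in 7.81% of all 32851 promoters of this length), the cAMP response element (TGACGTCA, 1.79%), EGR (GCGTGGGCG or GCGGGGGCG, 3.47%), SOX (ACAATG or ACAAAG, 28.6%), SP/KLF (GGGCGG, 35.7%) and the TATA box (TATAAA, 13.6%). EGR and SP/KLF letters can overlap. The Ntrk2 run holds 1 SOX match, read on the opposite strand, and 1 SP/KLF match, and the Gfra1 run holds 0 matches to the 6. The G and C share was 61.3% with 23 CpG dinucleotides for Ntrk2 and 54.0% with 12 for Gfra1, against medians of 52.7% and 7 over all promoters. A match is a run of letters and not a measured site.

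Ntrk2 (TrkB) was read by 3 probes. The brightest, A_55_P2006792 (NM_001025074), ranged from -0.17 to 1.10 at day 0 (median 0.25), from 0.25 to 1.11 at day 10 (median 0.76) and from 0.56 to 1.31 at day 22 (median 0.92). The days overlapped, since the arrays of value-table batch 1 already read 1.10 and 0.99 at day 0 while the other 4 read 0.53 or less. The difference from day 0 to day 22 was 0.54 ± 0.18, or 1.46-fold, with adjusted p = 0.0354 by limma with array-file batches, 0.201 with value-table batches and 0.149 with their block. It was also lost without batch 2 or 3 of day 0 or batch 1 or 3 of day 22 (adjusted p = 0.0747, 0.109, 0.0935 and 0.0686). Within slide 1, which holds only batch 1 of day 22, the difference was 1.06. With the value table's batches, batch 1 changed by -0.11 over the 22 days and batches 2 and 3 by 0.97 and 0.76. The shorter spans gave 0.32 ± 0.18 to day 10 and 0.22 ± 0.18 from there, with adjusted p = 0.21 and 0.474.

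The probe A_65_P04961, designed to another Ntrk2 transcript (NM_008745), ranged from -4.12 to -1.96 at day 0, from -3.04 to -1.96 at day 10 and from -2.78 to -1.79 at day 22. Its lowest array was higher on each later day, while its highest differed by little. It differed by 0.60 ± 0.22 from day 0 to day 22 (adjusted p = 0.0604 over all probes, 0.305 with the value table). Array by array, the deviations of both probes from their day means went together (Pearson r = 0.90, Spearman rho = 0.86, over 18 arrays that share their labelling and scan). The probe A_51_P393454, which carries the accession NM_001025074 as well, sat at the background. It has 10 spots per array, and 14 of the 176 readings used were well above background; by the rule of at least 0.5 of spots this held on 1 array of 18, at day 10. Its levels ran from -7.32 to -5.10 and it was not tested. The files do not say which part of the transcript or which form of the receptor each probe matches.

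Ntrk3 (TrkC) was read by 4 probes, and none passed the threshold between any days. The brightest, A_66_P118329 (NM_008746), ranged from 0.99 to 1.87 at day 0 (median 1.24), from 0.91 to 1.77 at day 10 (median 1.67) and from 0.35 to 1.52 at day 22 (median 1.29). Its differences were 0.17 ± 0.20, -0.32 ± 0.20 and -0.15 ± 0.20 for day 0 to 10, day 10 to 22 and day 0 to 22 (adjusted p = 0.564, 0.347 and 0.573). The last changed sign without batch 2 of day 0 (0.027) or batch 2 of day 22 (0.01). The lowest array of day 22, array 2 of batch 2, gave the lowest reading of the day on all 4 probes: 0.35 and -1.87 for the probes of NM_008746, and 0.11 and 0.58 for those of NM_182809. That array also had the lowest share of spots well above background in the series (54.8%), and the 4 probes share its labelling and scan. The part of array quality in these readings was not tested.

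The probes of the 2 Ntrk3 transcripts were then compared within arrays, a comparison chosen after the values were seen. By Pearson, probes of 1 accession followed each other closely around the day means (r = 0.98 for NM_008746 and 0.90 for NM_182809). Probes of different accessions did so less (r = 0.61 to 0.86, over 18 arrays). By Spearman this order did not hold for A_52_P500274 of NM_182809. It had rho = 0.83 with its partner of the same accession, and 0.89 and 0.91 with the probes of NM_008746. The mean of the NM_008746 probes minus that of the NM_182809 probes has no meaning as a ratio of transcripts, but its change does not depend on how bright each probe is. On single arrays it ran from -0.54 to 0.36 at day 0, from -0.28 to -0.06 at day 10 and from -1.10 to -0.40 at day 22. Every array of day 22 thus lay below every array of day 10, and day 0 overlapped both. The batch means were -0.25 ± 0.29, -0.15 ± 0.08 and -0.60 ± 0.17 (SD, n = 3 batches), a change of -0.44 from day 10 to day 22. The change is given as a description.

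**Figure D3:**
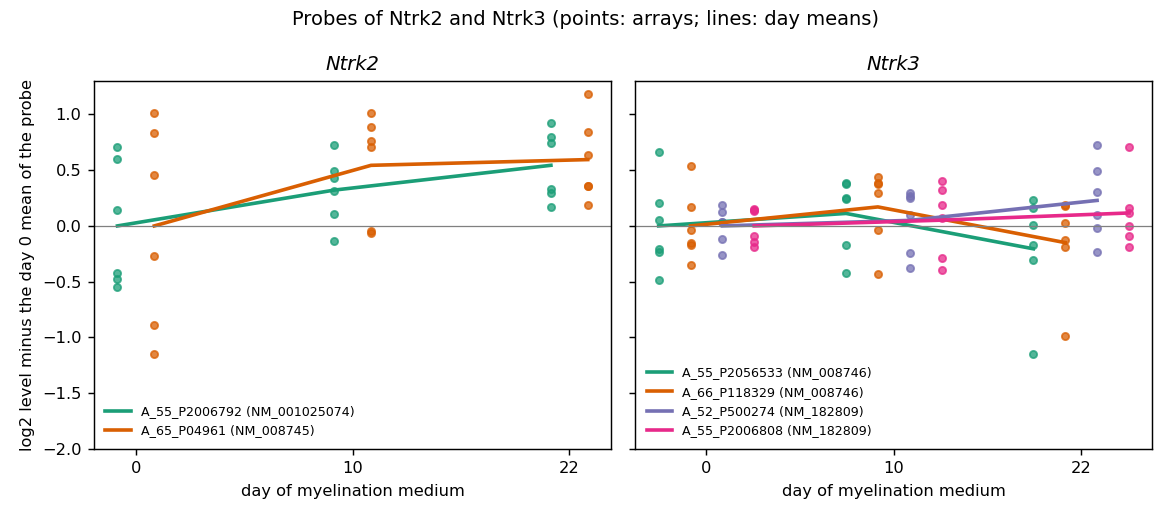
Log2 level of each tested probe of Ntrk2 and Ntrk3 minus the mean of that probe at day 0 (y axis), on each array (points) and as the mean of the day (lines), at days 0, 10 and 22. Both Ntrk2 lines end above 0, at 0.54 and 0.60, while the Ntrk3 probes of NM_008746 end below 0 and those of NM_182809 above it, with arrays of all days overlapping for each probe.

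Ret, the signalling receptor that Gfra1, Gfra2 and Gfra3 share, varied widely between arrays of the same day. Its arrays ranged from 0.95 to 3.07 at day 0 (median 2.15), from 1.74 to 3.83 at day 10 (median 2.16) and from 1.96 to 2.78 at day 22 (median 2.54), so that all days overlapped. The differences were 0.54 ± 0.28 for day 0 to 10, -0.13 ± 0.28 for day 10 to 22 and 0.41 ± 0.28 for day 0 to 22 (adjusted p = 0.192, 0.828 and 0.274 by limma). The middle difference changed sign without batch 2 of day 10 (0.069) or of day 22 (0.02) and within slide 1 (0.21).

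The Ret readings fell into pairs by value-table batch. Value-table batch 1 read 3.07 and 2.73 at day 0, above 0.95 to 2.36 on the other arrays, and 3.76 and 3.83 at day 10, above 1.74 to 2.20. At day 22 the same batch read 2.58 and 1.96, within or below the 2.43 to 2.78 of the others. The SD between the 2 arrays of a batch was 0.82 with array-file batches and 0.24 with value-table batches. Ret thus changed from day 10 to day 22 by -1.52 in value-table batch 1 and by 0.84 and 0.30 in the others.

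Limma's F test of batches within days was run on the 18 arrays. With value-table batches it called 3 of the 6 genes, Ret (adjusted p = 0.00554), Gfra3 (0.0158) and Ntrk2 (0.0254), when 8.69% of all features were called. Gfra1 (0.065), Gfra2 (0.29) and Ntrk3 (0.543) were not. With array-file batches limma called 0 of the 6 and 0.0% of features, 1781 of 22854 features having an unadjusted p under 0.05, Gfra2 among them. Some marker sums also differed between these batches. The sum is the intensity relative to the 75th percentile, added over the tested markers of a list and averaged over the 2 arrays. Sensory neuron markers summed to 645, 406 and 527 in value-table batches 1, 2 and 3 at day 0, to 709, 525 and 681 at day 10 and to 562, 422 and 503 at day 22. Schwann cell markers were lowest in value-table batch 1 on each day, at 486 against 595 and 585, at 654 against 713 and 763, and at 501 against 634 and 708. Fibroblast markers summed to 860, 745 and 569 at day 0, to 754, 601 and 734 at day 10 and to 848, 608 and 559 at day 22. Satellite glia markers lay within 324 to 336 in the batches of days 0 and 10 and at 480, 374 and 363 at day 22. Arrays of 1 batch could differ as much as batches, the sensory neuron sum of batch 2 at day 0 being made of 221 and 592. Their part in the batch differences of Ret, Gfra3 and Ntrk2 was not tested.

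**Figure D4:**
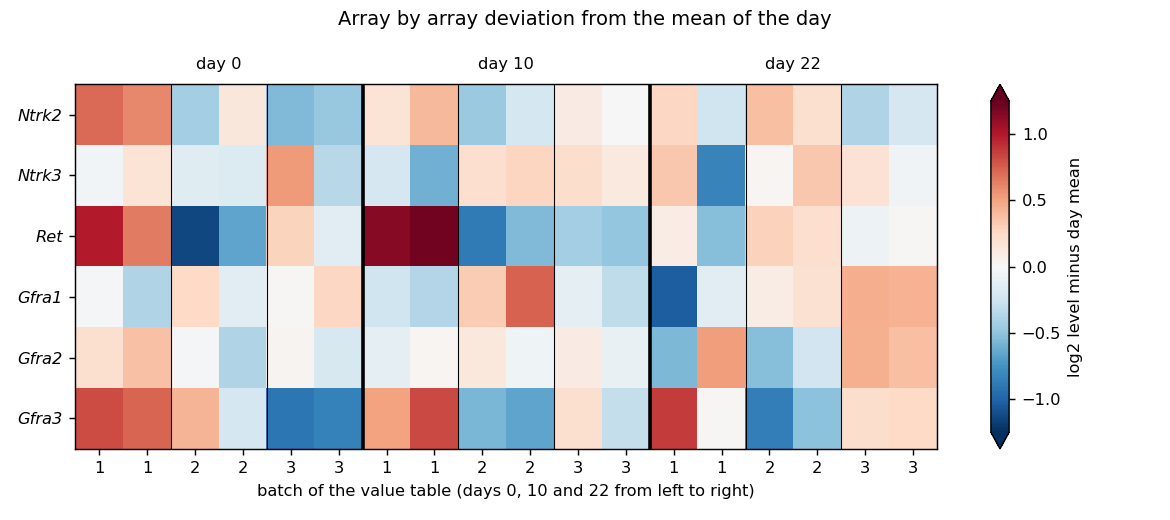
Log2 level of the brightest probe of each receptor minus the mean of its day (colour, red above and blue below) on 18 arrays ordered by day and, within a day, by value-table batch. Ret is red in batch 1 and blue in batch 2 on days 0 and 10, while on day 22 its darkest cell is a blue one in batch 1.

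Around their day means the receptors differed in which others they followed. Ntrk2 went with Ret (Pearson r = 0.64, Spearman rho = 0.64) and with Gfra3 (r = 0.54, rho = 0.57), and against Gfra1 (r = -0.53, rho = -0.58), while Gfra1 went against Gfra3 (r = -0.53, rho = -0.52). Ret and its co-receptor Gfra2 showed no relation in this measure (r = 0.00, rho = -0.04). With its other co-receptors Ret had r = 0.41 (rho = 0.36) for Gfra3 and r = -0.36 (rho = -0.42) for Gfra1. With Sox10, the gene of a transcription factor of Schwann cells and satellite glia, Gfra1 had r = 0.64 (rho = 0.55), Ntrk2 r = -0.50 (rho = -0.48) and Gfra3 r = -0.44 (rho = -0.44). The Gfra1 value leans on a single array, since leaving out 1 array at a time, an alternative chosen after seeing the data, gave r = 0.36 to 0.73. With the neuronal tubulin gene Tubb3 the Pearson values furthest from 0 were those of Ntrk3 (r = 0.44, rho = 0.39) and Gfra3 (r = -0.40, rho = -0.38). By Spearman the value furthest from 0 was that of Gfra1 (rho = 0.46, r = 0.27). These are descriptions over 18 arrays that share batches and labelling, and of 27 pairs.

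By a fixed rule the 3 genes whose levels over the 18 arrays correlated best with each receptor were listed, as a description in which the change between days weighs heavily. For Gfra2 they were Gpsm2 (r = 0.98), Celsr1 (0.97) and Mboat2 (0.96), and for Gfra1 they were Fam178b (0.96), Drp2 (0.93) and Uckl1 (0.93). For Gfra3 the list was Egflam (0.94), Cdc23 (0.87) and Arhgap28 (0.86), and for Ntrk2 Ackr3 (0.93), Crispld1 (0.91) and Alkal2 (0.91). Ret was most like Slc7a14 (0.88), Pappa (0.88) and Tmtc4 (0.86). Ntrk3 had its highest correlations with Med9 (0.78), Cbln1 (0.76) and Sorcs3 (0.74).

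The genes of the ligands were followed over the same arrays. Of 8 ligand genes 7 were tested, Pspn not passing the filter, and over the 22 days the count with both assignments of batches was 1 higher and 2 lower. With 12.6 and 18.6% of all features called, this is no result about the ligands as a list, whose median change was -0.27 beside -0.08 over all features. Ntf3, which encodes the preferred ligand of TrkC, fell by 3.57 (SE 0.68; adjusted p = 0.00347 by limma, 0.0063 with the value table). Its arrays ran from -0.76 to 1.14 at day 0, from -1.79 to -0.11 at day 10 and from -6.30 to -1.77 at day 22, where 5 of 6 were well above background. The last range is the widest. Nrtn, the gene of neurturin, fell by 0.38 (SE 0.09; adjusted p = 0.00877 and 0.0192), from 1.61 to 1.75 at day 0 to 1.15 to 1.52 at day 22 with no overlap. Ntf5, which encodes a ligand of TrkB, rose by 0.64 ± 0.20 (adjusted p = 0.0292 and 0.0444) at low levels of -5.12 to -3.33. Its probe was well above background on 5 of 6 arrays at day 0 and on 6 at each later day. It thus passed the filter only through the days on which it was higher, and its difference is taken from low readings.

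Gdnf, the gene of the ligand that Gfra1 binds, fell by 1.17 (SE 0.19) from day 0 to day 10 (adjusted p = 0.00337 and 0.0481), the interval in which Gfra1 rose. Its arrays lay between 1.08 and 2.87 at day 0 and between 0.07 and 0.74 at day 10, with no overlap, and between 0.78 and 1.38 at day 22. In that first interval 0 ligand genes were higher and 1 lower with both assignments, against 5.75 and 7.72% of all features. With array-file batches 1 was higher and 2 lower, against 11.4 and 17.8% of all features. At an unadjusted p under 0.05 with these batches 1 was higher and 2 lower as well. Beside that background the counts are no result about the ligands. Bdnf, whose product binds TrkB, differed by 0.63 ± 0.16 from day 0 to day 22, with adjusted p = 0.013 but 0.102 with the value table. Artn, the gene of the Gfra3 ligand artemin, differed by -0.27 ± 0.25 over the same span (adjusted p = 0.412). From day 0 to day 10 Artn differed by -0.76 ± 0.25 (adjusted p = 0.0493 by limma but 0.166 with the value table). From day 10 to day 22 the difference was 0.49 ± 0.25 (adjusted p = 0.247). Bdnf and Artn lie outside the rule for named genes and were added after their values were seen, as ligands of the receptors described.

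Among other receptors and co-receptors of the 2 families the called changes from day 0 to day 22 were all downward. Of 15 genes 14 were tested (not Gfral), and 0 were higher and 6 lower with each assignment of batches; at an unadjusted p under 0.05, 0 were higher and 8 lower. The median change of the list was -0.26 beside -0.08 over all features, and 18.6% of features were lower with both assignments. Islr2, which encodes an immunoglobulin and leucine-rich repeat protein that binds Trk receptors and Ret, fell by 4.26 (SE 0.40; adjusted p = 0.000107 by limma, 0.00305 with the value table). Its arrays ran from -0.82 to 2.99 at day 0, from -1.75 to -0.14 at day 10 and from -3.12 to -1.49 at day 22. Ncam1, the cell adhesion molecule that can also bind GDNF with Gfra1, fell by 1.05 (SE 0.10; adjusted p = 0.000116 and 0.000265), and Slitrk5, which encodes a TrkB-binding transmembrane protein, by 0.95 (SE 0.20; adjusted p = 0.00513 and 0.0121). Ncam1 made most of its change early, with arrays at 4.59 to 4.74 at day 0, at 3.60 to 3.87 at day 10 and at 3.38 to 3.79 at day 22.

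Ngfr, the gene of the shared neurotrophin receptor p75, lies outside the rule and was named after its values were seen. It fell by 0.92 (SE 0.16; adjusted p = 0.00192 and 0.0108), from 6.91 to 7.34 at day 0 to 5.86 to 6.49 at day 22 with no overlap. Gfra4, the co-receptor of persephin, was tested and did not pass, with a difference of 0.10 ± 0.14 (adjusted p = 0.61). Gfra2 and Ngfr are thus lower at day 22 in the same fit, and Gfra1 higher, and the 3 comparisons share the arrays of day 0.

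**Figure D5:**
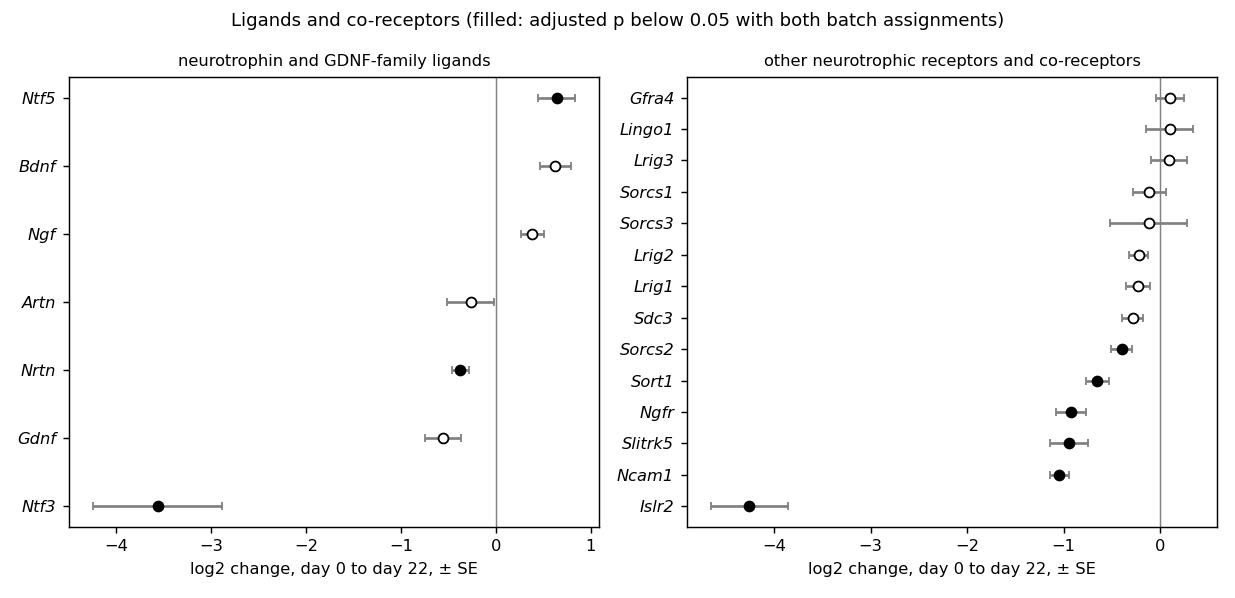
Log2 change from day 0 to day 22 ± its standard error in limma (x axis) of 7 ligand genes and 14 genes of other receptors and co-receptors, with filled points where adjusted p was below 0.05 with both assignments of batches. Ntf3 and Islr2 stand far to the left at -3.57 and -4.26, Ntf5 is the filled point to the right of 0 among the ligands, and no filled co-receptor lies to the right of 0.

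Downstream genes were called about as often as features at large, of which 12.6% were higher and 18.6% lower with both assignments from day 0 to day 22. Of 27 adaptor genes of Trk and Ret 26 were tested (not Grb7), and over this span 2 were higher and 5 lower, with a median change of -0.11. Dok2 and Dok1, docking proteins that several tyrosine kinases phosphorylate, rose by 1.98 ± 0.42 (adjusted p = 0.00572 and 0.0158) and 0.80 ± 0.14 (adjusted p = 0.00217 and 0.00925). Grb10, an adaptor that binds activated receptor kinases, fell by 1.42 (SE 0.18; adjusted p = 0.000445 and 0.00453). Dok4, a docking protein that Ret phosphorylates, fell by 1.01 (SE 0.13; adjusted p = 0.000615 and 0.0103), and the scaffold Gab1 by 0.69 (SE 0.14; adjusted p = 0.00459 and 0.0313). Dok5, another docking protein, entered the tests through day 10 alone. Its probe was well above background on 1 array of day 0, 6 of day 10 and 4 of day 22, so its difference of 1.64 ± 0.23 to day 10 (adjusted p = 0.00193 and 0.0433) is taken against a day near background, and by day 22 it was 0.75 ± 0.23 (adjusted p = 0.0285 and 0.219).

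Of 16 response and feedback genes 16 were tested, and from day 0 to day 22 2 were higher and 3 lower with both assignments, with a median change of -0.19. Vgf, a secreted protein induced by neurotrophins, rose by 1.11 ± 0.25 (adjusted p = 0.00725 and 0.0324), and Crem, a regulator of cAMP-responsive genes, by 0.68 ± 0.10 (adjusted p = 0.000871 and 0.00997). Etv4, a transcription factor downstream of growth factor receptors, fell by 1.23 (SE 0.12; adjusted p = 0.000118 and 0.00224). Spry2, a feedback inhibitor of receptor kinase signalling, fell by 0.99 (SE 0.22; adjusted p = 0.00721, 0.0331 and 0.056 with the value-table block). Maff, a small transcription factor, fell by 0.70 (SE 0.15) from day 0 to day 10 (adjusted p = 0.0109 and 0.0382).

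In whole explants fewer cells of a type and less RNA per cell cannot be told apart, so the marker lists are given beside these results. Pan-neuronal markers summed to 366 to 701 on the arrays of day 0, 520 to 777 at day 10 and 368 to 637 at day 22; 16 of 16 were tested, and from day 0 to day 22 1 was higher and 5 lower with both assignments. Sensory neuron markers summed to 221 to 678, 516 to 727 and 378 to 610, with 3 of 17 higher and 0 lower from day 0 to day 22 (4 lower at an unadjusted p under 0.05). Schwann cell markers summed to 480 to 635, 644 to 780 and 404 to 762 (10 of 10 tested; 0 higher and 1 lower from day 0 to day 22, and 2 and 3 at an unadjusted p under 0.05). Macrophage markers summed to 61.3 to 80.1, 89.3 to 122 and 104 to 307, with 8 of 10 higher and 0 lower from day 0 to day 22 (9 and 1 at an unadjusted p under 0.05). Satellite glia markers, 8 of 8 tested, summed to 318 to 338, 316 to 355 and 337 to 513, with 3 higher and 3 lower. Fibroblast markers, 9 of 10 tested, summed to 565 to 885, 579 to 832 and 503 to 864, with 2 higher and 3 lower and a median change of 1.23. Endothelial markers, 6 of 8 tested, summed to 12.0 to 18.4, 14.2 to 18.1 and 13.2 to 17.3, with 1 higher and 1 lower. Over that span 12.6% of all features were higher and 18.6% lower with both assignments. In the first 10 days, when Gfra2 fell, 7.72% of all features were lower by limma with both assignments, so short lists can hold few such markers or none. By that rule 0 of 16 pan-neuronal, 0 of 17 sensory neuron, 0 of 10 macrophage and 0 of 6 endothelial markers were lower. So were 1 of 10 Schwann cell, 2 of 8 satellite glia and 1 of 9 fibroblast markers, namely Cdh19, Fabp7, Cdh7 and Postn, named after their values were seen. At an unadjusted p under 0.05 the lower markers were 0 pan-neuronal, 0 sensory neuron, 0 macrophage and 2 endothelial. They were 3 in the Schwann cell, 3 in the satellite glia and 2 in the fibroblast list. Each tested marker passed the same filter as the receptor probes. The part of these cells in the changes of Gfra1, Gfra2, Gfra3 and Ntrk2 was not tested. Nor was it tested for the ligand, co-receptor, adaptor and response genes named above, Dok2 and Dok1 among them.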

How the data were processed

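RNA of the 18 samples was labelled with Cy3, and each sample was hybridised to a one-colour Agilent array of its own. The spot intensity used is the processed signal that the authors obtained from Feature Extraction 10.7.1, background already subtracted, per the file headers. The headers name mm9 as the build of the array design. Flags deposited beside it (0 or 1) mark a spot as above background, saturated or outlying. A second deposited table gives intensity per probe with 33.7 as the median of every column; how it was made is not given in the sources used here.

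Levels were computed as log2 of the processed signal less the array's 75th percentile (584 to 747). Outlying spots, 93 to 181 on an array, were dropped, and 0 were saturated. Probes took gene symbols by accession from a RefSeq table (GRCm38.p6), whose coordinates were used for promoters alone. The filter kept 30431 of 55681 probes, and the brightest of a gene's probes stood for it (22854 features). Both arrays of a batch were averaged first. Then lmFit and eBayes of limma 3.58.1 in R 4.3.3 were run on the 9 means with day as the group, and p was adjusted by Benjamini-Hochberg over all features. The 22 alternatives covered batch assignment, blocks, background correction, normalization, probe choice, filter, slides and each batch left out. Background correction used normexp with offset 50 on the median spot signal in place of the mean signal first planned. The fit was tested on simulated data.

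Replicate numbers stand for batches shared across days in the labels. Pairs of equal number correlated, after subtraction of day means, at -0.13 to 0.37 (over 0.1 in 6 of 9 pairs); by value-table batches they correlated at -0.08 to 0.46 (over 0.1 in 8 of 9). A column of that table matched 1 array and reached a Spearman correlation of at most 0.975 with the rest. The receptors, gene lists and tests were chosen with earlier results of these data known. Genes named from the lists passed 0.05 with both batch assignments in at least 1 comparison, up to 3 per list and direction by size, beside 3 most similar genes per receptor. A receptor gene of the lists is not reported here.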

Additional observations from a re-analysis of the deposited data

Results flagged for a closer look

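The brightest Ntrk3 probe, A_66_P118329, had 1 array far below the others at day 22. It read 0.35 there against 1.15 on the next lowest array, a gap of 0.68 of the whole range of the day and past Dixon's limit for 6 arrays. Chance alone gives such a gap in about 1 of 20 groups of independent values. The 6 arrays are 3 batches of 2 technical arrays, and the limit is not corrected for the number of groups looked at. The low array, array 2 of batch 2, also had the lowest share of spots well above background in the series (54.8%).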

How the results depend on the processing

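Gfra1 and Gfra2 kept their direction and their call from day 0 to day 22 in all 22 alternatives (0.99 to 1.76 and -2.90 to -2.01), and from day 0 to day 10 in 21 of 22, the exception being slide 2 alone. From day 0 to day 22 the call of Gfra3 was lost in 4 of 22 and that of Ntrk2 in 11 of 22. Ret from day 10 to day 22 changed sign in 3 of 22 (0.21 in slide 1, 0.069 without batch 2 of day 10, 0.02 without batch 2 of day 22; -0.39 to 0.069 over the batches left out), and Ntrk3 from day 0 to day 22 in 2 of 22 (0.027 without batch 2 of day 0, 0.01 without batch 2 of day 22; -0.28 to 0.027 over the batches left out). The cause was not tested. Slide 1 holds only batch 1 of day 22, so fits within that slide have no second batch of that day.

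From day 0 to day 10 Gfra3 lost its call in 14 of 22 alternatives, value-table batches among them. Receptor genes called in that interval numbered 3 in the main setting, and 0 within slide 2, for genes and for probes, where each day has few arrays. From day 0 to day 22 they numbered 4, and 2 with value-table batches, with the values of the authors' table themselves and within slide 1 or 2, for genes and for probes. From day 10 to day 22 they numbered 0, and 1 with batch as a random effect, with and without the slide as a block. Leaving out 1 batch gave 2 to 3, 3 to 4 (3 to 5 probes) and 0 to 1. The F test of batches within days called 0 receptors, and 3 with value-table batches.

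Features called from day 0 to day 10 numbered 6683. They were 3161 with value-table batches, 3105 in the authors' value table, 957 and 396 within slides 1 and 2, and 4421 to 7568 without 1 batch. With the replicate block, pairing the value table's batches across days, they were 3732. From day 10 to day 22 the 2201 features became 458 with the value table's batches, 716 with their replicate block, 432 in the authors' table, 1151 with no filter, 3349 with batch as a random effect, 5077 with the slide as well, 0 within slide 1 or 2 by limma, and 775 to 3495 without 1 batch. From day 0 to day 22 the 10155 features became 3172 and 2846 within slides 1 and 2, and 8066 to 9916 without 1 batch. The block on the array files' batches changed no receptor's call. Dim probes limit the rest: 1 of 11 receptor probes was too close to background to test.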

Other observations

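The genes most like each receptor differed when only the deviations from the day means were used, over the same 18 arrays and as a description. Ret went with Slc7a7 (r = 0.90), Slc7a14 (0.90) and Gpr35 (0.88), Ntrk2 with Myo1d (0.92), Ackr3 (0.91) and Ogfrl1 (0.91), and Ntrk3 with Plppr4 (0.85), Klk1b27 (0.82) and Slc35d3 (0.82). Gfra1 went with Inf2, Bicd2 and Abtb2 (r = 0.91, 0.90 and 0.90), Gfra2 with Paqr6, Gpsm2 and Dhrs2 (r = 0.89, 0.88 and 0.84), and Gfra3 with Egflam, Cyp2d22 and Col23a1 (r = 0.90, 0.84 and 0.84). Ackr3, Slc7a14, Gpsm2 and Egflam stood in the lists made from levels too.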
